A study of Mus musculus with 3 samples.

Results

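Meis2-positive neurons were the cells of the E15.5 mouse embryo section that carried at least 5 counts of Stmn2, at least 2 of Tubb2b and at least 2 of Meis2, with fewer than 2 counts each of Reln and Hand2. Cells with fewer than 10 counts of panel genes were left out first. The rule found 10915 cells among 195915 kept cells (5.57%, 95% interval 5.47 to 5.67%) and 219525 cells in the section, and the whole series holds 227437 cells. They were set against 6385 Meis2-negative neurons of the same section, which met the same limits but had 0 counts of Meis2. Another 2026 cells of the same neuron gate had exactly 1 count of Meis2 and belonged to neither group.

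The series holds MERFISH data, in which single RNA molecules are read in place through barcodes imaged over several rounds, from sagittal sections of wild-type whole mouse embryos. It has 1 section at E15.5 and 2 sections from different embryos at E9.5, with no treatment in any of them. The Vizgen MERSCOPE instrument counted 296 genes per segmented cell, a panel rich in genes of blood vessels, and 19 blank codes that stand for no gene. Because E15.5 has 1 embryo and 1 section, no difference below has a replicate or a test between embryos, and cells and areas of that section were not treated as replicates.

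Meis2 encodes a TALE homeodomain transcription factor that binds DNA together with other homeodomain proteins. In the developing nervous system it is known for its part in forebrain, midbrain and hindbrain patterning and in the formation of GABAergic neurons. Stmn2 encodes a microtubule-binding stathmin of growing neurites, and Tubb2b a beta-tubulin of young neurons. Reln marks a class of early neurons that secrete the guidance protein reelin, and Hand2 is a transcription factor of sympathetic neurons, heart and limb. The limits on these genes keep cells with 2 or more counts of either out of both groups. A single count was allowed, and 33.1% of Meis2-positive and 26.7% of Meis2-negative neurons had 1 count of Reln.

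The 3 genes that chose the neurons are given as a description only. Meis2 averaged 10.2 counts per Meis2-positive neuron, with a median of 8, quartiles of 4 and 14 and a highest value of 84, and it averaged 1.26 counts in the kept cells outside the neuron gate. Stmn2 averaged 18.9 counts in Meis2-positive and 12.3 in Meis2-negative neurons, against 1.60 in the kept cells outside the gate. Tubb2b averaged 8.08, 7.61 and 0.810 counts in the same order. The limits on Reln and Hand2 removed 5913 of the 16828 kept cells that passed on Stmn2, Tubb2b and Meis2 (35.1%).

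The panel has few neuronal genes outside the rule, and those present were well above the rest of the section in both groups. Scn3a, a sodium channel subunit of embryonic neurons, had 78.1 counts per 10000 in Meis2-positive neurons and 90.4 in Meis2-negative neurons, against 9.10 in the kept cells outside the gate. Rgs4, a regulator of G-protein signalling that is abundant in neurons, had 95.4 and 105 counts per 10000 in these groups, against 23.7 outside the gate. Here and below, a level is the count of a gene per 10000 counts of the 291 panel genes outside the rule, summed over all cells of a group. Both genes therefore went with the neuron label, and neither set the pooled groups apart at the size used below. For Rgs4 the pooled level of Meis2-positive neurons mixed unlike places. Among their spatial groups, described further down, Rgs4 had 54.5 counts per 10000 in group 1, the largest, and fewer in group 6. It had 119, 507, 187 and 113 in groups 2, 3, 4 and 5. No gene of the glutamate list was in the panel and the GABA list had 1, Foxp1, so the transmitter of these neurons was not read.

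Markers of other cells were not at 0 in either group. Radial glia markers (Fabp7, Slc1a3 and Vim) summed to 329 counts per 10000 in Meis2-positive and 188 in Meis2-negative neurons, against 236 outside the gate. The 6 endothelial markers summed to 59.1 in Meis2-positive and 64.8 in Meis2-negative neurons, against 80.5 outside the gate. Mesenchyme markers summed to 23.3 and 22.4 against 283, and macrophage markers to 15.7 and 15.01 against 38.8. Each marker gene of these lists had at least 53 counts in Meis2-positive and at least 20 in Meis2-negative neurons.

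Meis2-positive neurons held more counts, which the rule itself favours, since it asks for at least 2 Meis2 counts against 0. Their median was 119 panel counts and 40 genes per cell, against 88 counts and 34 genes in Meis2-negative neurons, although their median cell volume was lower, at 665 against 701 in the file's unit. Outside the 5 rule genes the medians were 86 and 71 counts and the sums 1148179 and 525624 counts. How far the rule set this difference in depth was not tested. The nuclear stain DAPI per volume had a median of 392453 in Meis2-positive and 503177 in Meis2-negative neurons, and the PolyT stain 882562 and 866044. Blank codes made up 0.206% and 0.256% of the counts. Over the 19 blank codes the ratio of Meis2-positive to Meis2-negative levels had a median of 0.862 and ran from 0.644 to 1.51, with 2 codes past 1.5-fold and 0 past 2-fold. No cell identifier was shared between the 3 sections (0 shared).

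Meis2-positive cells made up 56.5% of the 19326 neurons of the gate (95% interval 55.8 to 57.2%), and Meis2-negative cells 33.0% (32.4 to 33.7%). The 2 kinds of neuron occupied different ground. Among the neurons within 100 micrometres of a Meis2-positive neuron (at most the 20 nearest), 83.6% were Meis2-positive, and among those around a Meis2-negative neuron 15.2% were. The section was divided into squares of 500 micrometres, of which 36 held at least 50 neurons. The Meis2-positive share in these squares ran from 0.446% to 97.4% with a median of 44.7%. It was at least 90% in 5 squares, at most 10% in 5 and between these values in 26, so large stretches also held both kinds.

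**Figure D1:**
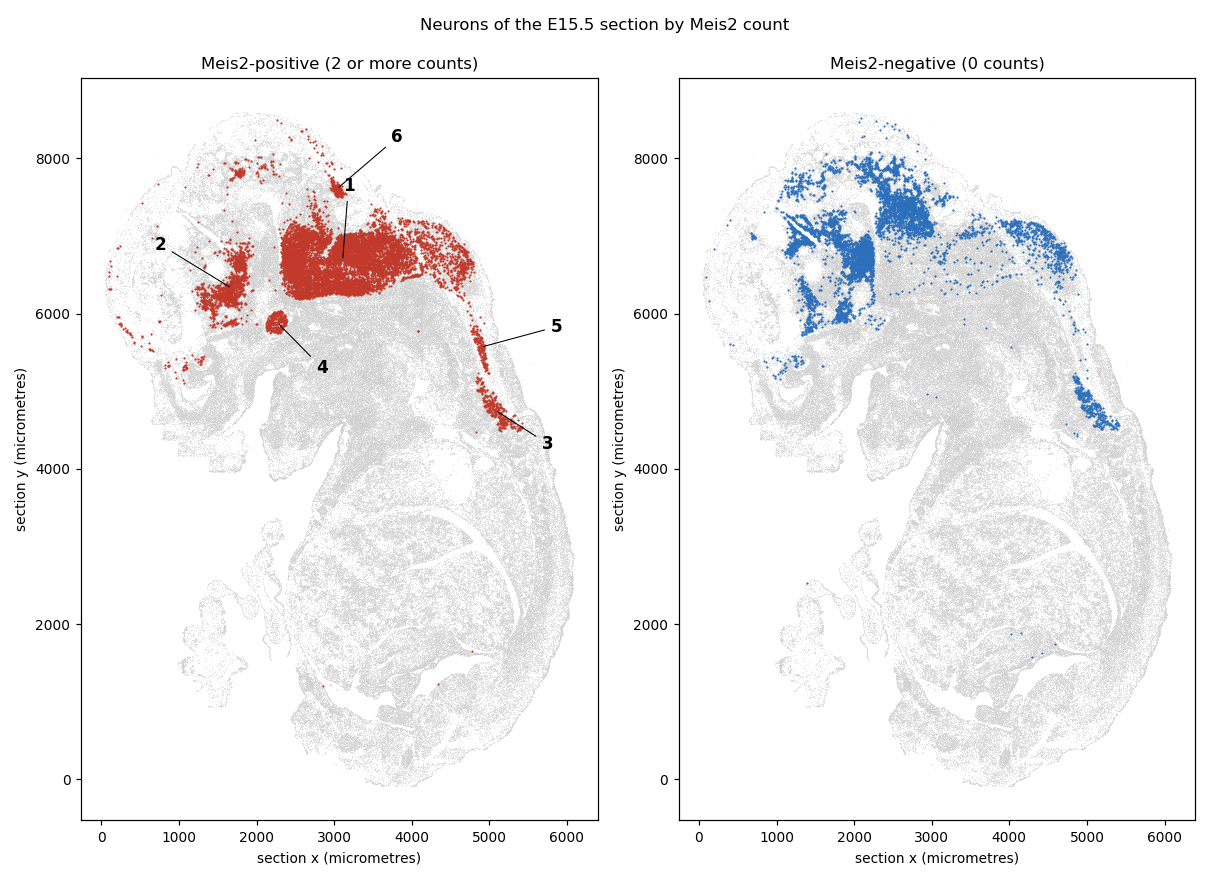
Position of neurons in the E15.5 section, with both axes in micrometres. Red points (left) are the 10915 Meis2-positive neurons, blue points (right) the 6385 Meis2-negative neurons and grey points other kept cells. Numbers mark the 6 spatial groups of Meis2-positive neurons with at least 100 cells. The largest group fills a compact block next to a Meis2-negative band, and the border between them is sharp.

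A sharp change lay at the edge of the largest block of Meis2-positive neurons, in a strip 800 micrometres tall that was picked after the map was seen. On the Meis2-positive side of the edge, 1212 of 1268 neurons within 250 micrometres were Meis2-positive (95.6%, 95% interval 94.3 to 96.6%), with a mean of 14.2 Meis2 counts per neuron. On the other side, 3 of 1000 neurons were (0.3%, 0.0619 to 0.874%), with a mean of 0.08 counts. A zone 50 micrometres wide between them held only 4 neurons of the gate. Kept cells outside the neuron gate changed in the same place, with means of 13.0 Meis2 counts on the Meis2-positive side and 0.0369 on the other. The edge was thus not limited to cells of the gate. Cells outside it can include neurons left out by the limits on Reln, Hand2 or Stmn2, and their kinds were not separated here. Median depth was 116 and 93 counts per neuron on the 2 sides. These intervals cover counting error only.

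Of the 291 genes outside the rule, 35 were higher in Meis2-positive than in Meis2-negative neurons (12% of genes) and 13 were lower (4.47%), together 16.5%. A gene was called at a 1.5-fold difference of levels or more, with at least 50 counts in the higher group and a level there above the mean blank code. With a 2-fold limit the counts were 15 and 4. The genes with the largest folds were transcription factors, a Wnt modulator, a retinoic acid carrier and genes of radial glia. The median log2 fold over all 291 genes was 0.07. All folds below carry 95% intervals for counting error alone, and their values within squares of the section follow further down.

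Transcription factors led the higher genes. Tbx20, a T-box factor of the heart and of hindbrain motor neurons, had 51.9 counts per 10000 in Meis2-positive and 1.92 in Meis2-negative neurons, a ratio of 27.0 (22.2 to 33.2). Mecom, a zinc finger factor also called Evi1, had 8.49 and 1.96 counts per 10000 (4.33-fold, 3.53 to 5.36). The Meis2-negative levels of Tbx20 and Mecom were near the mean blank code of that group, at 1.68, so the size of both ratios depends on background. With the blank level subtracted the ratios were 212 for Tbx20 and 25.5 for Mecom. Casz1, a zinc finger factor, had 29.2 and 11.5 (2.55-fold, 2.33 to 2.78), and Maf, a basic leucine zipper factor, 37.0 and 18.4 (2.01-fold, 1.88 to 2.16). Transcripts of these 4 genes were thus all at least 2-fold higher in the pooled Meis2-positive cells.

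Several transcription factors did not reach 1.5-fold. Hoxa5, a HOX factor of the neck and upper trunk, had 41.0 counts per 10000 in Meis2-positive and 43.6 in Meis2-negative neurons (0.940-fold), and Nr2f2, an orphan nuclear receptor, 29.7 and 29.5 (1.01-fold). Prox1, a homeobox factor of lymphatic vessels and of newly formed neurons, had 14.3 and 20.03 (0.714-fold). Over the list of 18 patterning transcription factors in the panel, 2 were higher (Maf and Tbx20), 1 was lower (Zic1) and 15 were not called, with a median log2 fold of 0.00 beside 0.07 for all genes.

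Genes of secreted and signalling proteins were next. Sfrp2, a secreted modulator of Wnt signalling, had 33.3 counts per 10000 in Meis2-positive and 6.91 in Meis2-negative neurons (4.83-fold, 4.33 to 5.39). Sparcl1, a secreted matrix glycoprotein, had 90.6 and 40.9 (2.21-fold, 2.11 to 2.32). Ackr3, a scavenger receptor for the chemokine Cxcl12, had 11.9 and 4.60 (2.57-fold, 2.24 to 2.96), while Cxcl12 itself had 7.05 and 7.74 (0.911-fold) and its receptor gene Cxcr4 4.68 and 5.63 (0.831-fold). Of 3 Wnt pathway genes 1 was higher, Sfrp2, and of 3 chemokine genes 1, Ackr3. Fibin, which codes for a secreted protein, had 6.57 and 3.27 counts per 10000 (2.01-fold, 1.70 to 2.38).

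In the retinoid list, 1 of 3 genes was higher. Crabp1, a cytoplasmic carrier of retinoic acid, had 61.6 counts per 10000 in Meis2-positive and 20.6 in Meis2-negative neurons (2.99-fold, 2.80 to 3.19), and at least 1 count in 27.2% and 8.16% of cells. With each cell thinned to 50 counts these shares were 18.7% and 5.51%. Stra6, a receptor for the retinol carrier in blood, had 23.2 and 17.0 counts per 10000 (1.36-fold, 1.26 to 1.47) and was not called.

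Of the 3 radial glia genes 2 were higher. Fabp7, which binds fatty acids in radial glia, had 154 counts per 10000 in Meis2-positive and 54.8 in Meis2-negative neurons (2.81-fold, 2.71 to 2.93). Slc1a3, a glutamate transporter of radial glia and astrocytes, had 16.4 and 4.30 (3.81-fold, 3.32 to 4.40). The third gene of the list, Vim, an intermediate filament of radial glia and mesenchyme, had 158 and 128 (1.23-fold). Fabp7 and Slc1a3 occurred together: 93.6% of the Meis2-positive neurons with at least 2 Slc1a3 counts also had at least 2 of Fabp7, beside 20.01% of all Meis2-positive neurons. Sfrp2 sat with them, since 75.8% of the 504 Meis2-positive neurons with at least 2 Sfrp2 counts had at least 2 of Fabp7. How far counts of adjoining glia entered these cells was not tested. Leaving out cells whose centres lay within 8 micrometres of another kept only 2716 Meis2-positive and 1982 Meis2-negative neurons. Slc1a3 was then at 3.90-fold, Fabp7 at 2.64-fold and Sfrp2 at 4.80-fold, with 51 genes higher and 17 lower. Without the neurons that had at least 2 counts over Fabp7 and Slc1a3, 28 genes were higher and 13 lower, the ratio of Sfrp2 was 1.67, and those of Pdlim3 and Pdpn were 0.795 and 0.922.

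The remaining higher genes with the largest folds code for cytoskeletal and membrane proteins. S100a10, a calcium-binding-type protein that pairs with annexin A2, had 53.3 counts per 10000 in Meis2-positive and 19.2 in Meis2-negative neurons (2.78-fold, 2.60 to 2.97). Anxa2 itself had 22.3 and 13.2 (1.69-fold, 1.55 to 1.84), but it was at 1.07-fold, and not called, with depth standardised, that is, with levels compared within 10 bins of counts per cell. Pdlim3, an actin-associated PDZ and LIM protein, had 9.71 and 3.79 (2.57-fold, 2.20 to 2.998), and Pdpn, a membrane glycoprotein, 8.53 and 3.84 (2.22-fold, 1.90 to 2.59).

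The 13 lower genes had smaller folds. Zic1, a zinc finger factor of neural patterning, had 16.3 counts per 10000 in Meis2-positive and 35.6 in Meis2-negative neurons (0.459-fold, 0.431 to 0.490). Chst1, a sulfotransferase of keratan sulfate, had 60.4 and 122 (0.496-fold, 0.480 to 0.514). Sgk1, a kinase induced by serum and glucocorticoids, had 29.3 and 57.6 (0.508-fold, 0.483 to 0.534). Dlk1, an imprinted membrane protein related to Notch ligands, had 47.5 and 83.3 (0.570-fold), and Jag1, a Notch ligand, 20.3 and 33.5 (0.606-fold). Notch1, a receptor for Jag1, was among the higher genes, with 44.7 and 24.2 (1.84-fold, 1.73 to 1.96). Notch1 was at 1.28-fold with depth standardised and at 0.932 and 0.844 within squares of 500 and 250 micrometres, so its pooled direction did not hold within places. Foxp1, a forkhead factor and the single panel gene of the GABA list, had 52.2 and 80.9 (0.645-fold, 0.620 to 0.671). Lbp, Vwf, Lpl, Tll1 and Scgb3a1 were also lower, at 0.492 to 0.656-fold. In Meis2-negative neurons Lbp, Vwf and Lpl had 3.82, 5.57 and 2.53 counts per 10000, below the highest blank code of that group, at 6.54. The ratios of these genes are thus limited by background.

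**Figure D2:**
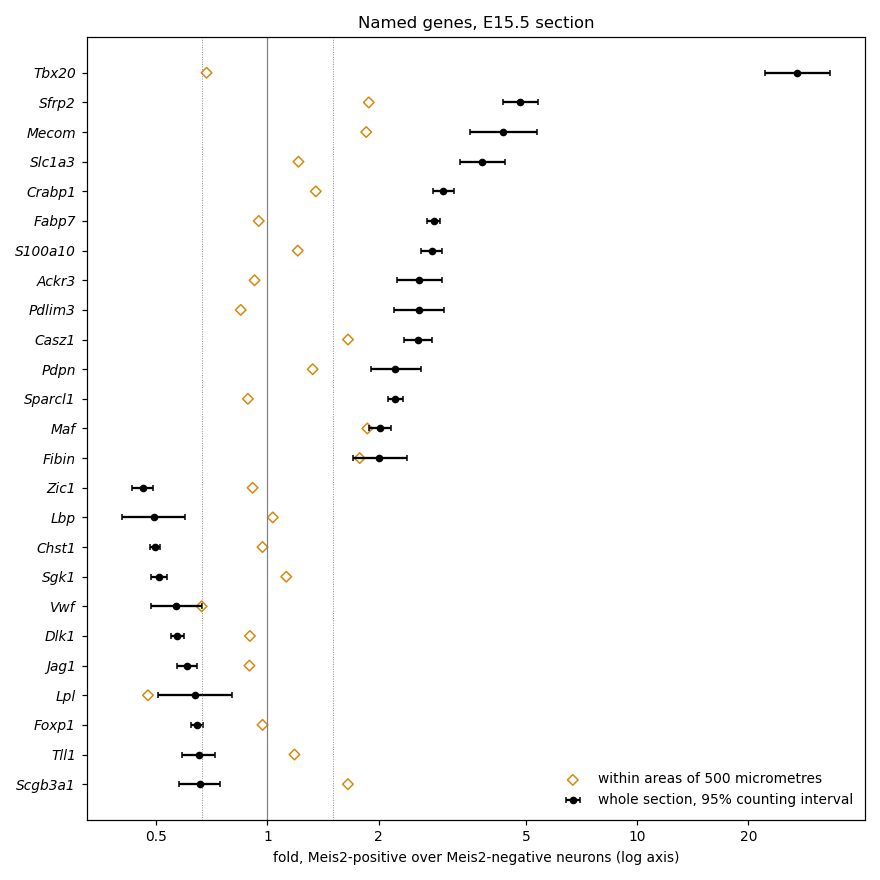
Ratio of levels, Meis2-positive over Meis2-negative neurons, for 14 of the 15 higher genes with the largest folds and 11 of the 13 lower genes, on a log axis. Black points are ratios over the whole section with 95% counting intervals, orange diamonds are ratios within squares of 500 micrometres and dotted lines mark 1.5-fold in each direction. Tbx20 has the largest ratio over the section, 27.0, and 0.684 within these squares, which leave out the square with most Tbx20 counts. In squares of 250 micrometres, not drawn, its ratio is 1.76.

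Read by list, few genes were called outside those groups. Of 5 neuronal development genes 0 were called, and the most abundant of them, Spock2, a matrix proteoglycan of brain, had 324 counts per 10000 in Meis2-positive and 263 in Meis2-negative neurons (1.23-fold, 1.21 to 1.26). Of 8 mitotic and 4 DNA synthesis genes 0 were called, and the mitotic genes summed to 37.9 and 31.3 counts per 10000, against 276 outside the gate. Of 5 cell cycle exit genes 2 were higher, Ccng1 (30.8 and 17.9, 1.72-fold) and Btg2 (13.1 and 7.90, 1.66-fold, or 1.47 with depth standardised and 0.875 within squares of 500 micrometres). Of 9 mural markers 2 were higher, Myh11 (2.84 and 1.85, 1.54-fold) and Pdgfrb (4.44 and 2.89, 1.54-fold), both at low levels and at 1.25 and 1.11-fold with depth standardised. Within squares of 500 and 250 micrometres Myh11 was at 2.86 and 3.21 and Pdgfrb at 0.923 and 1.24. Of 3 peripheral glia markers 1 was higher, the sodium channel gene Scn7a (31.1 and 19.1, 1.63-fold). Scn7a was at 1.03-fold with depth standardised, and at 1.67 and 1.64 within squares of 500 and 250 micrometres. Groups 3 and 4 of the neurons, small patches described with the other spatial groups, held 2045 and 1310 of its 3573 counts in Meis2-positive neurons. Of 5 Notch pathway genes 1 was higher and 1 lower, Notch1 and Jag1, and of 5 imprinted genes 1 was lower, Dlk1. The endothelial, brain endothelial, macrophage, mesenchyme, guidance and erythroid lists had 0 genes called.

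The pooled folds mix differences between places with differences between neighbours, because the groups occupied different ground. The levels were therefore also compared within the 26 squares of 500 micrometres that held at least 20 neurons of each group, with 8521 Meis2-positive and 5317 Meis2-negative neurons. There 22 of the 35 higher genes and 9 of the 13 lower genes stayed on their side of 1, and 11 and 3 were still at least 1.5-fold different. The same was done in 35 squares of 250 micrometres, a size added after the data were seen, in which 12 of the 35 higher and 0 of the 13 lower genes were still called. Over all 291 genes, 25 were called higher and 29 lower within squares of 500 micrometres, and 24 and 16 within squares of 250 micrometres. Many genes called within squares were thus not among the pooled calls. The values of single genes depended on the size of the square. In squares of 500 and 250 micrometres Sfrp2 was at 1.88 and 1.85, Fibin at 1.78 and 1.64 and Crabp1 at 1.35 and 1.64. Mecom was at 1.85 and 1.18, Maf at 1.86 and 1.30 and Casz1 at 1.65 and 1.34, so these 3 were below 1.5 in the smaller squares. Slc1a3 was at 1.21 and 1.52 and S100a10 at 1.21 and 1.10. Fabp7 was at 0.947 and 0.917 and Pdlim3 at 0.847 and 0.670, below 1 in both sizes, whereas Ackr3 was at 0.923 and 1.46 and Sparcl1 at 0.885 and 1.10. On the lower side Vwf was at 0.664 and 0.859 and Lpl at 0.475 and 0.709. In squares of 500 micrometres Zic1, Chst1, Dlk1, Jag1 and Foxp1 lay between 0.894 and 0.970 and the ratios of Sgk1, Tll1, Lbp and Scgb3a1 were above 1.

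In larger squares of 1000 micrometres the side also varied. With at least 50 neurons of each group, 11 such squares could be read, and 341 of 528 pairs of a called gene and a square lay on the pooled side (64.6%). Of the 35 higher genes 7 were higher in at least 9 of the 11 squares, and these were Sfrp2, Mecom, S100a10, Cd59a, Anxa6, Hpgd and Myh11. Of the 13 lower genes 3 were lower in at least 9 squares, Vwf and Lpl among them, both at levels within the range of the blank codes. Cd59a, a membrane inhibitor of complement that is singled out here after its values were seen, was higher in 11 of 11 squares. Its levels there were 7.52 to 20.3 counts per 10000 in Meis2-positive and 4.49 to 19.7 in Meis2-negative neurons, with ratios of 1.03 to 2.03 and a pooled ratio of 1.71 (1.54 to 1.90). Some of these ratios rest on few counts, down to 5 in the Meis2-positive and 8 in the Meis2-negative neurons of a square.

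Tbx20 shows how much 1 place can set a pooled ratio. A single square of 500 micrometres held 90.5% of the Tbx20 counts of all Meis2-positive neurons (5388 counts in 867 cells). In that square 592 of the 867 Meis2-positive neurons had at least 2 Tbx20 counts (68.3%), against 0.985% of Meis2-positive neurons elsewhere. Its 17 Meis2-negative neurons held 31 Tbx20 counts, so the levels were 419 counts per 10000 in Meis2-positive and 393 in Meis2-negative neurons of the same square. That square had fewer than the 20 Meis2-negative neurons asked for, so it was not among the 26 squares compared above. Within those 26 squares the ratio of Tbx20 was 0.684, and within the squares of 250 micrometres it was 1.76. In the 2 squares of 1000 micrometres with the most Tbx20 it was 2.18 (136 and 62.3 counts per 10000) and 7.05 (7.03 and 0.997), so the direction between neighbours was not settled by these data. Among the 691 Meis2-positive neurons with at least 2 Tbx20 counts, 67.3% also had at least 2 counts of S100a10, beside 11.2% of all Meis2-positive neurons. Only 1.88% of them had at least 2 of Crabp1, beside 12.2% of all. Tbx20 and Crabp1 thus shared few cells among the Meis2-positive neurons.

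**Figure D3:**
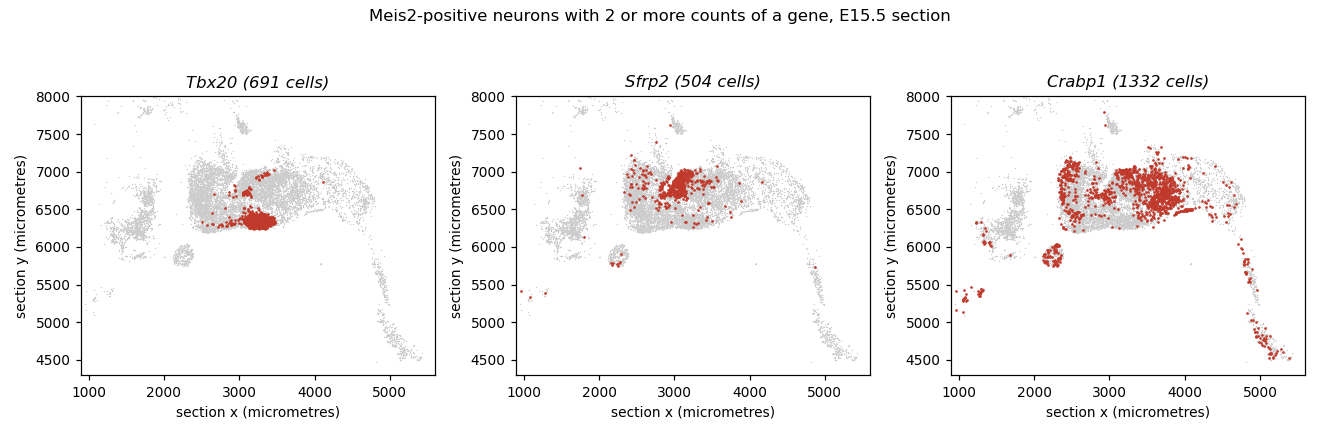
Meis2-positive neurons (grey) with those that had at least 2 counts of a gene in red, in section coordinates in micrometres. The 691 Tbx20 cells form a compact patch at the lower edge of the largest group, the 504 Sfrp2 cells a patch in its middle, and the 1332 Crabp1 cells lie in several patches.

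Other leading genes were also patchy, though less so. The single fullest square held 50.8% of the Sfrp2 counts of Meis2-positive neurons, 49.2% of those of Slc1a3, 43.1% of Fabp7, 39.3% of Mecom, 34.9% of S100a10 and 25.4% of Crabp1, out of 54 squares with Meis2-positive neurons. In 1 of the 1000 micrometre squares, with 3260 Meis2-positive and 1020 Meis2-negative neurons, Crabp1 had 54.6 and 3.99 counts per 10000 (13.7-fold), Sfrp2 43.5 and 3.36 (12.9-fold) and Maf 59.5 and 7.10 (8.37-fold). In another, with 3824 and 118 neurons, Crabp1 had 78.0 and 129 (0.604-fold). Crabp1 thus differed in opposite directions between the 2 groups of neurons in different places.

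MEIS proteins are known to bind the DNA motif TGACAG. It was searched on both strands (CTGTCA on the other) in the 250 bases before each gene's start in RefSeq's table for build GRCm38.p6. The motif was present for 5 of 25 matched higher genes (20%), 1 of 8 matched lower genes (12.5%), 29 of 217 matched panel genes (13.4%) and 5210 of 32851 promoters in the table (15.9%). A match is not a bound site, and 0 matches says only that these letters are not in the window. Shown are Meis2, the gene that chose the cells (chr2:116064620-116064869, minus strand), Tbx20, with the largest ratio (chr9:24774304-24774553, minus strand), and Cd59a, higher in 11 of 11 squares (chr2:104095551-104095800, plus strand). They are written 5′ to 3′, each ending at the base before the gene's start, with a match to the motif in capitals.
Meis2: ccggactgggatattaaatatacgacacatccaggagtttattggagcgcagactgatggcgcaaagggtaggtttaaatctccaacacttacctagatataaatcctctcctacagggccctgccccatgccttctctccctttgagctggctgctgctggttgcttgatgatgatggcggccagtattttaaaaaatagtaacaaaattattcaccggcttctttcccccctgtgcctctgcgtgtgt
Tbx20: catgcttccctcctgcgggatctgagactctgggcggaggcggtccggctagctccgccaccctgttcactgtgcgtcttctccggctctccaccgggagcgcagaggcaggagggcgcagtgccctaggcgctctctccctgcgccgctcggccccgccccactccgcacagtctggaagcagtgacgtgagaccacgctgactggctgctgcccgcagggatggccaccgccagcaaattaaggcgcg
Cd59a: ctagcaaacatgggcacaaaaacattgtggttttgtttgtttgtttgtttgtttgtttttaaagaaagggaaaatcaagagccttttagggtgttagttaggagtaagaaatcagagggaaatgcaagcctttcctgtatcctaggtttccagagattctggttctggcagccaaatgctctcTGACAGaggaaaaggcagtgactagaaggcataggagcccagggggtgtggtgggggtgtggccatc
Cd59a had 1 match, 67 bases before the start, and Meis2 and Tbx20 had 0 in this window.

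The levels also varied with the number of Meis2 counts per neuron. The neurons of the gate were split into those with 0 (6385 cells), 1 (2026), 2 (1280), 3 to 4 (1915), 5 to 9 (3332) and 10 or more Meis2 counts (4388). Crabp1 had 20.6 counts per 10000 at 0 Meis2 counts, 47.9 at 1, just outside the rule, and 69.1 at 2, just inside it. Fabp7 had 54.8 at 0, 96.0 at 1 and 148 at 2. Neurons with 1 count thus lay between the groups for these genes.

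Not all genes kept the same course. Tbx20 stood at 1.92, 5.69, 14.0, 32.9, 47.6 and 67.6 counts per 10000 from the lowest to the highest Meis2 class, highest where Meis2 was highest. Zic1 stood at 35.6, 40.6, 35.8, 29.0, 16.6 and 8.50, and Rgs4 at 105, 158, 167, 133, 110 and 61.4, so Rgs4 peaked in neurons with few Meis2 counts. Foxp1 was lowest in the middle, at 80.9, 54.1, 36.8, 37.8, 45.6 and 63.5. Median depth outside the rule was 71, 71.5, 66, 69, 75 and 107 counts in these classes, so the highest class was also the deepest. The classes also pool unlike places. The 1 square with 90.5% of the Tbx20 counts of Meis2-positive neurons had 419 counts per 10000 in these and 393 in its 17 Meis2-negative neurons. The parts of depth and of place in these courses were not tested.

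**Figure D4:**
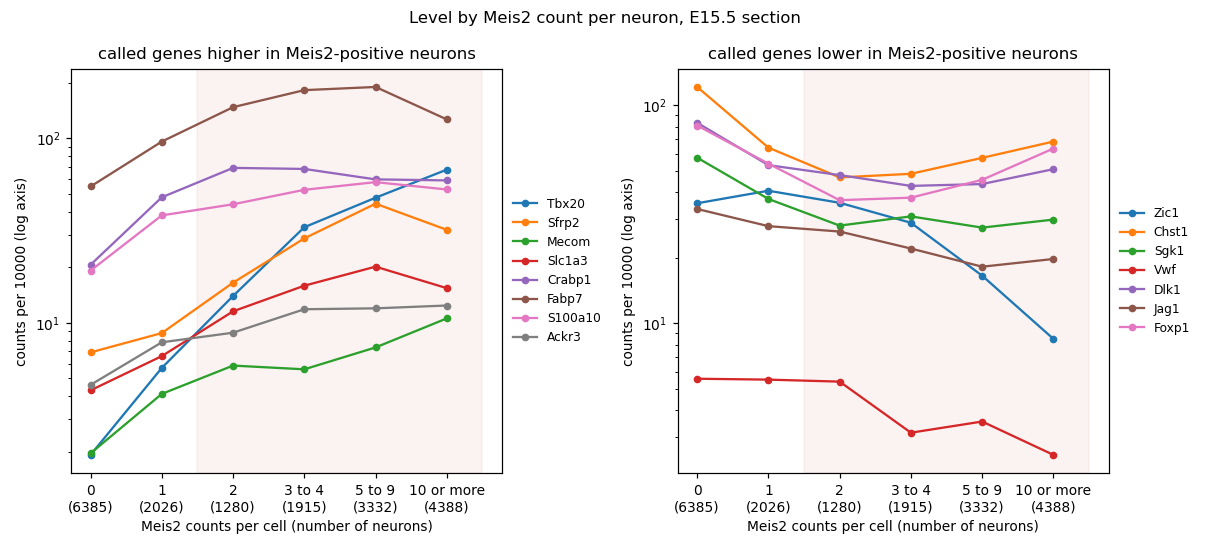
Level (counts per 10000, log axis) of 15 called genes in neurons grouped by their Meis2 count, with the number of neurons under each class. The shaded classes are the Meis2-positive neurons, and each class pools all places of the section. Tbx20 is highest at 10 or more Meis2 counts, whereas Crabp1 stays between 59.1 and 69.1 from 2 counts on and Zic1 is lowest at 10 or more, at 8.50.

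By position alone the Meis2-positive neurons formed 12 groups, in which each cell was joined to others within 60 micrometres, and 6 of these with at least 100 cells held 96.0% of the neurons. No place names come with the data, so the groups are numbered by size. Group 1, with 8388 cells, held 76.8% of the neurons and had 70.6 counts per 10000 of Tbx20, 43.6 of Sfrp2, 71.0 of Crabp1 and 21.5 of Slc1a3. Next, group 1 was left out and all Meis2-negative neurons of the section were kept. The ratio of levels was then 0.371 for Tbx20, 0.775 for Sfrp2 and 0.581 for Slc1a3, and 81 genes were higher and 22 lower. These included 20 of the 35 higher and 9 of the 13 lower genes, and S100a10 and Casz1 were further apart, at 4.16 and 3.61-fold. Tbx20 had 0.714 counts per 10000 in the remaining Meis2-positive neurons, below the mean blank code of all Meis2-positive neurons, at 1.47. Group 2, with 1215 cells, had 122 counts per 10000 of Nr2f2, against 21.2 in the other Meis2-positive neurons (5.76-fold), 34.1 against 12.5 of Prox1 (2.73-fold) and 8.11 of Crabp1.

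Groups 3 and 4 stood apart from the rest in depth and in genes. Their median depth was 270.5 and 280 counts per cell, against 119 in group 1 and 98 in group 2. Group 3, with 298 cells, had 300 counts per 10000 of Scn7a (21.2-fold over the other Meis2-positive neurons) and 507 of Rgs4 (7.30-fold). Group 4, with 273 cells, had 187 of Stra6 (14.2-fold), 197 of Scn7a (9.44-fold) and 804 of the intermediate filament gene Vim (6.79-fold). Stmn2 averaged 42.1 and 43.6 counts per cell in groups 3 and 4, against 18.6 in group 1. Peripheral glia markers (Scn7a, Adgrg6 and Egfl8) summed to 354 and 240 counts per 10000 in groups 3 and 4, against 3.83 in group 1. Radial glia markers summed to 630 and 970, against 291. Of these, Fabp7 had 93.5 and 165 counts per 10000, against 178 in group 1, and Slc1a3 1.61 and 1.81, against 21.5. The higher radial glia sum thus came from Vim alone. Each marker of both lists had at least 11 counts in groups 3 and 4, and the part of adjoining glia in their levels was not tested.

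Groups 5 and 6 were the smallest. Group 5, with 162 cells in a band 623 micrometres long, had 334 counts per 10000 of Foxp1 (7.26-fold over the other Meis2-positive neurons) and 147 of Hoxa5, against 45.7 in group 1. It also had 207 counts per 10000 over the endothelial markers and 225 over the mural markers, against 54.6 and 59.4 in group 1, and 1 endothelial marker was at 0. Group 6, with 147 cells, had 307 of Pcdh17, a protocadherin (2.66-fold), and 0 of Nr2f2. Foxp1, lower in the pooled comparison, was thus lowest in group 6, at 5.23, and highest in group 5. The defining genes of a spatial group are a description, since each group is 1 place of 1 section.

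**Figure D5:**
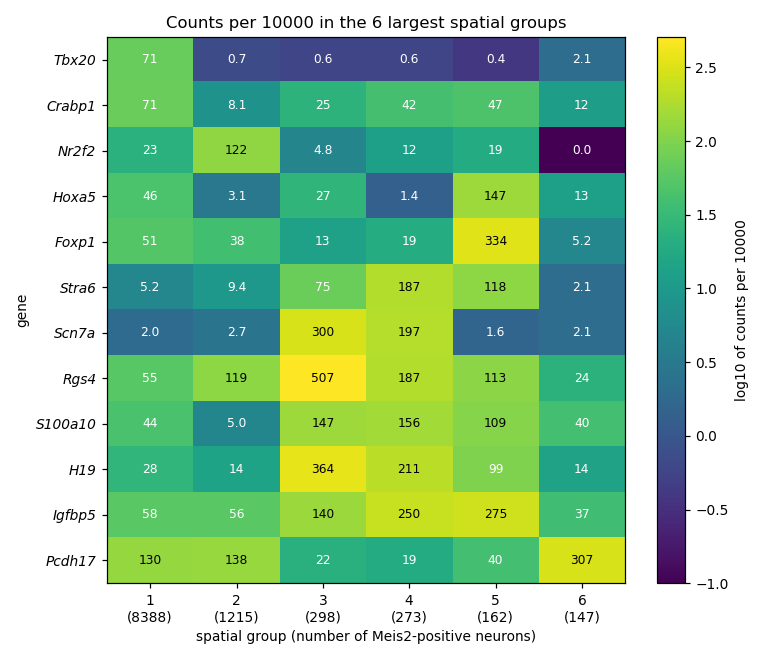
Level (counts per 10000, printed in each cell, with the colour on a log10 scale and 0 at the darkest colour) of 12 genes in the 6 largest spatial groups of Meis2-positive neurons, with cell numbers below. Tbx20 is high in group 1, at 70.6, and at most 2.09 in the other groups, Nr2f2 is highest in group 2, Scn7a in groups 3 and 4, Foxp1 and Hoxa5 in group 5 and Pcdh17 in group 6.

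Across the 36 squares of 500 micrometres with at least 50 neurons, the genes whose level in all neurons of a square went most with that of Meis2 included Gnas (Pearson r 0.62), Pltp (0.59), Mecom (0.53), Sparcl1 (0.52), Crabp1 (0.52), Gpc3 (0.52) and Nrp2 (0.51), among 291 genes. These are among the highest of 291 values and describe this section only, since the squares share the section, the imaging run and much of their neighbourhood. Gnas, which codes for the stimulatory G-protein subunit, itself differed little between the groups, with 961 counts per 10000 in Meis2-positive and 870 in Meis2-negative neurons (1.10-fold).

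The kept cells around the neurons differed too. Cells with fewer Stmn2 or Tubb2b counts than the gate asks were read where they lay within 50 micrometres of a Meis2-positive neuron and of no Meis2-negative one (4865 cells), or the reverse (8184 cells). Around Meis2-positive neurons 42 genes were higher (14.4% of 291) and 51 lower (17.5%). Slc1a3 had 34.1 counts per 10000 around Meis2-positive and 8.34 around Meis2-negative neurons (4.09-fold, 3.63 to 4.62), Sfrp2 65.0 and 20.9 (3.10-fold), Crabp1 39.4 and 14.4 (2.74-fold) and Fabp7 211 and 77.6 (2.72-fold). Foxd1, a forkhead factor, and Dkk2, a secreted Wnt modulator, were at 2.62 and 2.49-fold, but at 1.10 and 1.23-fold in the neurons. Rgs4 was lower, at 20.1 and 99.1 counts per 10000 (0.203-fold), and so was Myh11, a smooth muscle myosin, at 2.43 and 19.5 (0.125-fold, against 1.54-fold in the neurons). Tbx20, with 4.39 and 6.74 (0.652-fold), was on the other side from the neurons.

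Meis2 itself averaged 2.07 counts in cells around Meis2-positive neurons and 0.200 in those around Meis2-negative neurons. Of the 35 genes higher in the neurons, 14 were also higher around them (40%, and 33.3% of the 42), and of the 13 lower genes 7 were also lower (53.8%, and 13.7% of the 51). Counts can cross the drawn cell borders, and median depth around the neurons was 48 and 33 counts. With cells nearer than 15 micrometres left out, 32 genes were higher and 59 lower, and Slc1a3 was at 3.04-fold and Sfrp2 at 2.05-fold.

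The gate found almost no such cells at E9.5. In the 2 sections, 0 of 830 kept cells, which allows a share of up to 0.361%, and 1 of 6334 kept cells passed it. Without its limit on Meis2 the gate also passed 0 and 1 cells, so the scarcity was not particular to Meis2. The single cell had 587 counts, with 5 of Meis2 and 4 of Tbx20. Stage was not compared further, because the counts are too few and the stages were read in different sections.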

How the data were processed

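RNA molecules were counted per segmented cell in 3 sections, and the deposited counts are whole numbers of decoded molecules. Per the labels, hybridisation, imaging, segmentation and decoding were done on the MERSCOPE platform, with settings not given in the sources used here. Scanpy and Seurat appear, without a version, in the submitters' processing notes. Per the file headers, a second table holds each cell's centre, volume (no unit given, positions read as micrometres) and the deposited summed intensity of DAPI and PolyT.

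Cells with at least 10 panel counts were kept, and no doublet caller was run. Levels were sums over cells of the E15.5 section per 10000 counts outside the 5 rule genes, with exact conditional intervals at 95% for ratios and Clopper-Pearson intervals for shares. With 1 section no test was run. Named genes were up to 15 called genes with the largest and up to 15 with the smallest folds, members of the gene lists, and the 8 genes most like Meis2. Other totals, thresholds, filters, depths and positions were tried as alternatives. Spatial groups were built by joining cells within 60 micrometres around cells with at least 10 cells (itself included) at that distance (DBSCAN). The members and lists were chosen with earlier results of these data known. On simulated counts of 291 genes the calls found 98 of 98 changed genes, 0 of 191 unchanged genes were called, and 94.2% of intervals covered the true ratio. The changed genes counted there all lay past the 1.5-fold limit. The simulated counts did not vary between cells or places, so this checks the calculation only and not calls of patchy genes. Python 3.11.15, numpy 2.4.6, pandas 2.3.3, scipy 1.17.1 and scikit-learn 1.9.0 were used. The E9.5 stains and positions were not used here. Values of some genes are not reported here.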

Additional observations from a re-analysis of the deposited data

How the results depend on the processing

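The 28 named ratios were recomputed under 19 settings, which gave 532 values: 267 moved by less than their counting interval, 242 moved further on the same side of 1 and 23 changed side, while 15 genes changed side under none of these settings. Against 35 higher and 13 lower genes, subtracting the blank level gave 68 higher, counts per cell volume 111 and 4, depth standardisation 23 and 22, squares of 500 micrometres 29 lower and a 2-fold limit 15 and 4. Chosen after seeing the data, leaving out spatial group 1 but no Meis2-negative neurons gave 81 and 22. Keeping both groups within 60 micrometres of spatial group 1 gave 64 higher. The higher share of calls was 72.9%, against 96.5% per volume, where the median log2 fold was 0.49, 59.1% with all genes in the totals, 51.1% with depth standardised and 46.3% within squares of 500 micrometres.

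Ratios changed side as follows. Without cells holding Fabp7 and Slc1a3, Pdlim3 was 0.795 and Pdpn 0.922. Within squares of 500 micrometres, Tbx20 was 0.684, Fabp7 0.947, Ackr3 0.923, Pdlim3 0.847, Sparcl1 0.885, Lbp 1.03, Sgk1 1.12, Tll1 1.18 and Scgb3a1 1.65. These squares do not include the square with most Tbx20 counts. Within squares of 250 micrometres, Fabp7 was 0.917, Pdlim3 0.670, Sgk1 1.04, Tll1 1.06 and Scgb3a1 1.41. Tbx20, Ackr3 and Sparcl1 were above 1 there, at 1.76, 1.46 and 1.10. Without group 1, but with all Meis2-negative neurons kept, Tbx20 was 0.371, Sfrp2 0.775, Slc1a3 0.581, Pdlim3 0.643 and Sparcl1 0.873. Near group 1, Dlk1 was 1.42 and Tll1 1.20. The cause of these changes was not tested.

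The Meis2-positive share of neurons (56.5%) was 64.1% at 10 Stmn2 counts, 65.7% at 100 panel counts, 51.0% without cells whose centres lay within 8 micrometres of another, 53.3% without Fabp7 and Slc1a3 cells, 55.1% without vessel or macrophage markers, 49.9% and 39.9% at 3 and 5 Meis2 counts, and 59.3% thinned to 50 counts with 1 Meis2 count asked. Among neighbours of Meis2-positive neurons (83.6%) it was 84.3% within 50 and 83.1% within 200 micrometres, 82.7% beyond 15 micrometres, and 80.1% and 72.1% at 3 and 5 Meis2 counts. Around Meis2-negative neurons (15.2%) it was 16.3% within 200 micrometres, 15.6% beyond 15 micrometres, and 10.5% and 6.13% at 3 and 5 counts. No paired analysis was possible because E15.5 has 1 section and replicate numbers were given in accession order. Genes near the blank level, at 1.47 counts per 10000 in Meis2-positive and 1.68 in Meis2-negative neurons, are limited by depth.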
